A study of Mus musculus with 5 samples.

Results

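The genes described here are 10 markers of pericytes and of the other mural cells of blood vessels: Pdgfb, Pdgfrb, Pdgfra, Notch3, Rgs5, Kcnj8, Cspg4, Mcam, Acta2 and Des. They were taken by gene name, whatever their signal, and every probe that carries one of these names was read, which gave 19 of the 56605 probes and 10 of the 37074 gene names of the array. Gene expression was measured on 5 mouse arrays, 1 for each condition. Liver sinusoidal endothelial cells (LSECs) came from the liver of C57BL/6 mice. Tumor endothelial cells (TECs) came from orthotopic liver tumors of HAK-1B and KYN-2, which are human hepatoma cell lines, and of Hepa1-6, a mouse hepatoma line. The labels give C57BL/6 as the strain of all 3 TEC samples, whereas the methods name both C57BL/6 and nude BALB/c nu/nu female mice and do not say which host carried which tumor. The fifth array held cultured Hepa 1-6 cancer cells, labelled C57L, which hold no vessels. The paragraph of the methods on the arrays names Huh-7 in place of HAK-1B. TECs were taken from digested tumors with magnetic beads against CD31, a surface protein of endothelial cells and platelets, and pericytes were not selected for. How many animals were pooled for an array is not given in the sources used here.

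Pericytes are mural cells that lie in the basement membrane of capillaries and touch the endothelium, and larger vessels have smooth muscle cells in their place. Endothelial cells secrete PDGF-BB, the product of Pdgfb, which binds the receptor PDGFR-beta on pericytes and draws them to new vessels, and Notch3 in mural cells answers ligands such as Jagged1 on the endothelium. In the liver sinusoid the pericyte is the hepatic stellate cell, and tumor vessels are known for pericytes that are sparse or loosely attached.

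Values are gProcessedSignal, the background-subtracted brightness of a probe, on the log2 scale after quantile normalization over the 5 arrays, and a ratio is the difference of 2 such values. A gene with several probes is represented by the brightest of them, and levels are compared between arrays for the same probe only. Agilent's flag "well above background" says whether a probe was measured on an array, and a probe without it has only an upper bound there. Where 1 side of a ratio lacked the flag, the fold is given as "at least", against the lowest signal that carried the flag on that array or the probe's own value, whichever was higher. The Hepa1-6 TEC array stood apart, with 78.1% of all probes well above background against 54.1% to 57.6% on the other endothelial arrays, and its lowest flagged log2 signal was 2.85 against 4.28 to 4.68 on those. The 3 TEC arrays shared a slide and the LSEC array was on another slide, which means that the slide cannot be told apart from the group. The cultured cell array was on a separate slide again, so the same holds for comparisons with it. On that array 44.6% of probes were well above background, and the lowest flagged log2 signal was 5.96. Each condition had 1 array, and no value has a replicate check. The SD given for 3 TECs is the spread between tumor lines, not between animals.

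Most of the 10 markers were measured on every endothelial array, LSECs included. The brightest probe was well above background in LSECs, HAK-1B, Hepa1-6 and KYN-2 TECs for 9 of 10 genes, the exception being Des in LSECs. On the array of cultured Hepa1-6 cells it was so for 6 of 10, and the 4 genes without the flag there were Pdgfrb, Rgs5, Cspg4 and Des. The pan-endothelial genes were present beside them: all 16 of 16 listed genes were well above background on each of the 4 endothelial arrays. Pecam1, which encodes CD31 itself, had a log2 signal of 11.10 in LSECs, 9.93 in HAK-1B TECs, 9.15 in Hepa1-6 TECs and 11.01 in KYN-2 TECs, and 5.70 without the flag in cultured cells. The samples therefore held RNA of endothelial cells and of genes known as mural markers side by side. In a bulk sample a lower signal from fewer cells of a type and from less RNA per cell cannot be told apart.

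**Figure D1:**
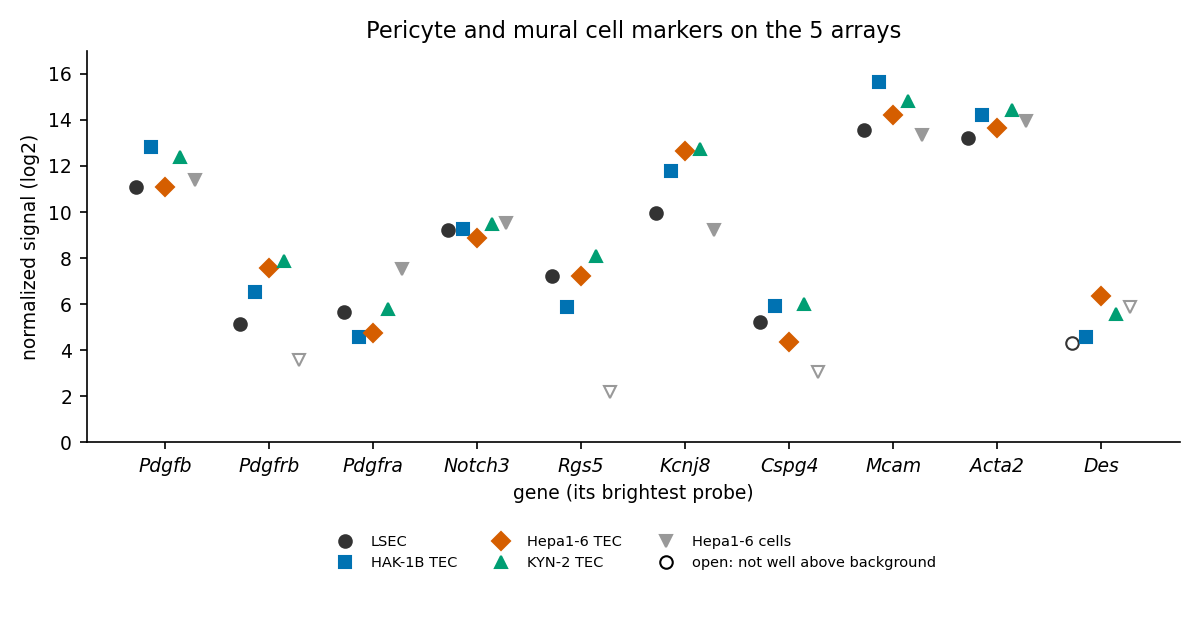
Normalized log2 signal (vertical axis) of the brightest probe of each of the 10 markers (horizontal axis) on the 5 arrays, 1 point per array, with open points for probes not well above background. Pdgfrb and Kcnj8 lay lowest in LSECs among the 4 endothelial arrays and highest in KYN-2 TEC, and Rgs5 lay at 2.18 without the flag in cultured Hepa1-6 cells.

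Of the 10 markers, 3 were higher in all 3 TECs than in LSECs by a ratio of at least 1.5 and none was lower by a ratio of at most 0.66 in all 3. The 3 were Pdgfrb, Mcam and Kcnj8, or 30% of the markers, where 7.95% of 26771 genes were higher in all 3 TECs by the same ratio and 12.8% were lower. The 26771 genes were kept in at least 1 of the 3 comparisons, and only genes kept in all 3 could count. The KYN-2 comparison kept 19819 genes, whereas all 10 markers were kept in each. Shares of all genes past a rule in all 3 TECs therefore understate the background. The 3 comparisons share the LSEC array. Taken line by line, 8 of 10 markers were higher and 0 lower in KYN-2 TEC, where 26% of all genes were higher and 28.5% lower. For HAK-1B TEC the counts were 6 higher and 2 lower (background 26.6% and 26.9%). Hepa1-6 TEC had 4 higher and 2 lower (35.2% and 30.9%), close to the background in both directions. The full rule of the methods also asks for a Z-score of 2 across all probes, and a higher gene then has to reach 6.79-fold in KYN-2 TEC, 7.25-fold in HAK-1B TEC and 11.4-fold in Hepa1-6 TEC. By that rule 0 of 10 markers passed in all 3 TECs, against 1.15% of all genes. The 1 marker to pass in a single line was Kcnj8 in KYN-2 TEC, 1 of 10 (background 6.51%), while 0 of 10 passed for HAK-1B TEC (7.05%) and 0 of 10 for Hepa1-6 TEC (6.58%). That call was a narrow one, at 6.86-fold: with scaling to the 75th percentile no marker passed in KYN-2 TEC, and with quantile normalization of each pair, as in the methods, the 1 marker was Pdgfrb in place of Kcnj8.

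The median ratio of the 10 markers to LSECs on the log2 scale was highest for KYN-2 TEC at 1.24, then 0.83 for HAK-1B TEC and 0.23 for Hepa1-6 TEC, and the medians over all genes kept were -0.03, -0.03 and 0.07. The median of each marker's mean over the 3 TECs was 0.95, beside 0.10 over all genes. The level of Hepa1-6 TEC decided part of the count. Without that array 6 markers were higher by 1.5 in both remaining TECs, adding Pdgfb, Cspg4 and Acta2 to the 3. The share of all genes higher in both was not computed, so this count has no background beside it. When the 3 TECs were set against the lone LSEC array in limma, which assumes that LSECs vary as the TECs do, 0 of 10 markers and 0% of 42112 probes passed a Benjamini-Hochberg adjusted p of 0.05. Before adjustment, p was under 0.05 for 8.51% of all probes and for the brightest probes of 2 markers, Kcnj8 and Pdgfrb. The second Acta2 probe was under it as well.

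**Figure D2:**
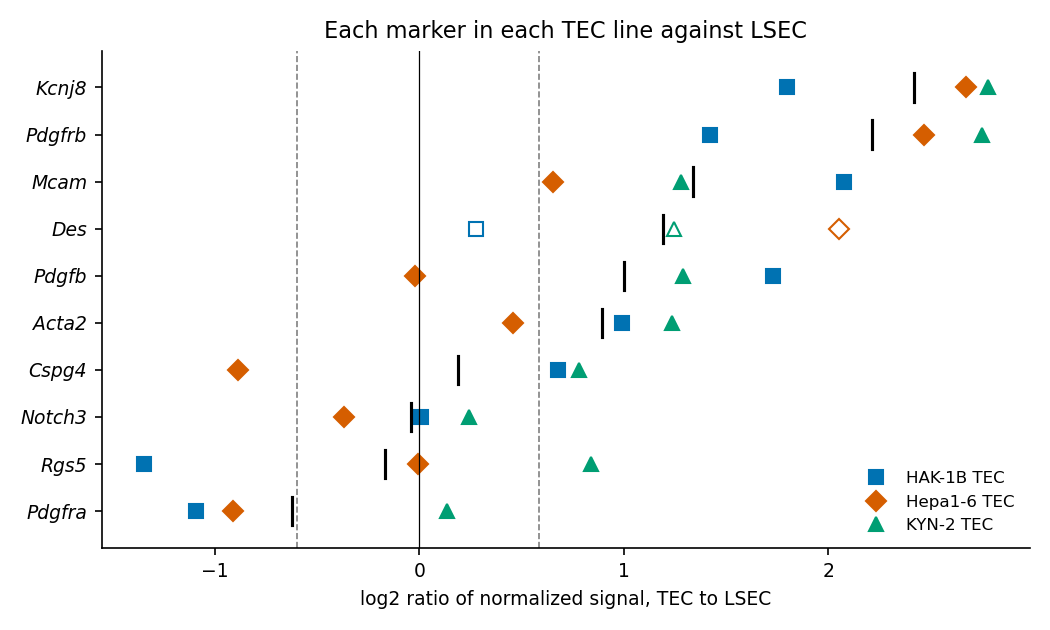
Log2 ratio to LSEC (horizontal axis) of the brightest probe of each marker (vertical axis) in the 3 TEC lines, with a black bar at their mean, dashed lines at ratios of 1.5 and 0.66, and open points where the LSEC or TEC probe was not well above background. Kcnj8, Pdgfrb and Mcam lay past the upper line in all 3 lines, whereas Pdgfb, Acta2 and Cspg4 did so in HAK-1B and KYN-2 TEC but not in Hepa1-6 TEC.

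The ligand and its receptor were examined first. Pdgfb encodes the PDGF-B chain that endothelial cells release to recruit pericytes. Its brightest probe read 11.10 in LSECs, 12.83 in HAK-1B TEC, 11.08 in Hepa1-6 TEC, 12.39 in KYN-2 TEC and 11.40 in cultured Hepa1-6 cells. By this probe the high samples were the TECs of the human tumors, HAK-1B and KYN-2, 3.32-fold and 2.45-fold above LSECs. Hepa1-6 TEC and LSECs differed by 1.01-fold. The mean log2 ratio was 1.00 ± 0.91 (SD, n = 3 TEC lines), and limma gave an adjusted p of 0.853. A second Pdgfb probe, designed on a cDNA clone and placed 6385 bases 5′ of the first on chromosome 15 of mm9 (79832821 to 79832880, minus strand), is printed in lower case, with no motif marked, because it did not follow the first probe in Hepa1-6 TEC.
Pdgfb cDNA clone probe: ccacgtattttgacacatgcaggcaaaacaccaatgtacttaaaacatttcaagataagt
This probe read 7.43 in LSECs, 8.07 in HAK-1B TEC, 5.31 in Hepa1-6 TEC, 7.58 in KYN-2 TEC and 7.57 in cultured cells. Here Hepa1-6 TEC was the lowest array, 4.35-fold below LSECs, where the brighter probe showed no difference of that size. The log2 ratio of -2.12 was -1.33 with scaling to the 75th percentile and -1.14 with normexp.

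Pdgfrb, the receptor for PDGF-BB and a widely used pericyte marker, was higher in each TEC line than in LSECs. Its single probe read 5.12 in LSECs, 6.54 in HAK-1B TECs, 7.59 in Hepa1-6 TECs and 7.87 in KYN-2 TECs, all well above background, and 3.57 without the flag in cultured Hepa1-6 cells. The ratio to LSECs was 2.68-fold, 5.53-fold and 6.73-fold. The mean log2 ratio of 2.21 ± 0.70 (SD, n = 3 TEC lines) was exceeded by 3.92% of 26771 genes, and the adjusted p by limma was 0.549. The LSEC signal was close to that array's lowest flagged signal of 4.68. Normexp background correction adds an offset to every signal, which lowers ratios most where signals are dim. With it the mean log2 ratio was 1.07 and that of HAK-1B TEC was 0.57, just under the 0.585 that a ratio of 1.5 stands for. That left 2 markers higher in all 3 TECs. Hepa1-6 TEC was at least 3.09-fold above the cancer cells of the same line.

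Pdgfra, the alpha receptor, is better known as a marker of fibroblasts and other mesenchymal cells, and among the 10 genes it was the one with the lowest mean ratio in TECs. Its brightest probe read 5.65 in LSECs, 4.56 in HAK-1B TEC, 4.73 in Hepa1-6 TEC, 5.78 in KYN-2 TEC and 7.54 in cultured Hepa1-6 cells. The cancer cells were the high sample, 3.72-fold above LSECs and 7.02-fold above Hepa1-6 TEC. HAK-1B and Hepa1-6 TECs were 2.13-fold and 1.88-fold lower than LSECs, and KYN-2 TEC was within 0.135 of them on the log2 scale. With normexp the log2 ratios of HAK-1B and Hepa1-6 TEC were -0.38 and -0.35, neither past a ratio of 0.66. The sign in Hepa1-6 TEC depended on the scaling: the log2 ratio of -0.91 became 0.14 when each array was scaled to its 75th percentile, a scaling that also moved the median of all genes on that array from 0.07 to 0.41. The 2 other Pdgfra probes, both designed on cDNA clones, were not well above background on any array.

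Partners of the PDGF receptors and of Notch3 were split. Of 19 listed genes 18 were kept, 3 were higher by 1.5 in all 3 TECs (16.7%) and 5 lower (27.8%), and the median mean ratio was 0.21. By the naming rule the genes with the largest ratios were Hes1, Pdgfd and Jag2. Hes1, a transcriptional target of Notch, read 10.09 in LSECs and 6.77, 6.56 and 7.91 in the HAK-1B, Hepa1-6 and KYN-2 samples, lower in each. Pdgfd, the ligand PDGF-D, read 8.83 in LSECs and 6.19, 5.17 and 7.13 in the TECs. Jag2, a Notch ligand, was 4.40 without the flag in LSECs and 8.28, 4.91 and 7.89 in the TECs, so that the TEC mean was at least 5.10-fold higher. The genes higher in all 3 TECs, named after their values were seen, were Pdgfa, Jag1 and Src. Pdgfa, the other classical PDGF chain, read 10.12 in LSECs and 13.03, 11.82 and 12.20 in the TECs, and Jag1, the Notch ligand of endothelium for mural cells, read 8.25 and 10.03, 9.63 and 10.09. Angpt1, the ligand of Tie2 that pericytes secrete, was lower in all 3, at 7.28 in LSECs and 4.48, 5.78 and 5.75 in the TECs. Pdgfa and Jag1 were also high in cultured Hepa1-6 cells, at 12.79 and 11.28.

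Notch3, the Notch receptor of mural cells, was the flattest marker. It read 9.24 in LSECs, 9.24 in HAK-1B TEC, 8.87 in Hepa1-6 TEC, 9.48 in KYN-2 TEC and 9.54 in cultured Hepa1-6 cells. The widest ratio to LSECs was 1.29-fold, the mean log2 ratio was -0.04 ± 0.31 (SD, n = 3 TEC lines), and over all settings tried it stayed between -0.18 and 0.12. The highest signal was that of the cultured cancer cells. Heyl, a Notch3 target of mural cells, lacked the flag in LSECs and HAK-1B TEC, and its signal was 3.36 in Hepa1-6 TECs and 5.22 in KYN-2 TECs.

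Rgs5 encodes a GTPase-activating protein that damps G protein signalling and is abundant in pericytes of growing vessels. Its probe read 7.24 in LSECs, 5.89 in HAK-1B TECs, 7.23 in Hepa1-6 TECs and 8.08 in KYN-2 TECs, and 2.18 without the flag in cultured Hepa1-6 cells. The lines went opposite ways, with HAK-1B TEC 2.54-fold below LSECs, KYN-2 TEC 1.79-fold above them and Hepa1-6 TEC 1.00-fold apart. The log2 ratios ran from -1.35 to 0.84 around a mean of -0.17, with an adjusted p of 0.97 by limma. Rgs5 was the 1 marker of 10 that passed the full rule between Hepa1-6 TEC and cultured Hepa1-6 cells (background 6.54%), with Hepa1-6 TEC at least 2.41-fold higher. That rule asks for 21.1-fold here, and the call rests on a signal without the flag in cultured cells. With the flag required on both arrays, or with normexp background correction, the 1 marker was Kcnj8 instead, and with scaling to the 75th percentile there was none. By the ratio alone 5 markers were higher in Hepa1-6 TEC than in these cells, Pdgfrb, Rgs5, Cspg4, Mcam and Kcnj8 (background 34.1%), and 2 lower, Pdgfra and Notch3 (32.6%). Cspg4 is counted by its normalized signals alone, and no fold can be given for it, because its signal in Hepa1-6 TEC was below the lowest flagged signal of the cultured cell array, 5.96.

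Kcnj8 encodes Kir6.1, the pore of an ATP-sensitive potassium channel that helps to set the membrane potential of pericytes and smooth muscle. By the brightest probes, Kcnj8 was the marker with the largest mean ratio and the smallest spread relative to it. The second Acta2 probe, described below, had a larger mean log2 ratio, at 3.22. Its probe, at chromosome 6, 142513920 to 142513979 of mm9 on the minus strand, read 9.97 in LSECs, 11.77 in HAK-1B TEC, 12.64 in Hepa1-6 TEC, 12.74 in KYN-2 TEC and 9.23 in cultured Hepa1-6 cells. All 3 TECs lay above LSECs and above the cancer cells, by 3.48-fold, 6.38-fold and 6.86-fold against LSECs. The mean log2 ratio was 2.42 ± 0.54 (SD, n = 3 TEC lines), a value that 2.96% of all genes exceeded, and its smallest ratio of the 3 lines was exceeded by that of 1.95%. The adjusted p by limma was 0.493. Across the settings tried, the mean ratio ranged from 2.24 to 2.73. In cultured cells Kcnj8 carried the flag and was 1.66-fold below LSECs, and Hepa1-6 TEC was 10.6-fold above those cells.

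Abcc9 encodes SUR2, the regulatory subunit that assembles with Kir6.1, and lies beside Kcnj8 in the genome. It was 1 of the other mural genes listed and is named after its values were seen. Its signal was 8.83 in LSECs, 9.86 in HAK-1B TECs, 11.20 in Hepa1-6 TECs and 11.05 in KYN-2 TECs, and 3.61 without the flag in cultured Hepa1-6 cells. Both subunits of the channel were thus higher in each TEC line than in LSECs, Abcc9 by log2 ratios of 1.03, 2.37 and 2.22. The subunits differed in the cancer cells, where the pore gene was measured and the regulatory gene was not.

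Among surface proteins, Cspg4, which encodes the NG2 proteoglycan of pericytes and oligodendrocyte precursors, went both ways. Its brightest probe read 5.22 in LSECs, 5.90 in HAK-1B TECs, 4.34 in Hepa1-6 TECs and 6.00 in KYN-2 TECs, and 3.07 without the flag in cultured cells. HAK-1B and KYN-2 TECs were 1.60-fold and 1.72-fold above LSECs and Hepa1-6 TEC was 1.85-fold below. These signals were dim, the log2 ratio of Hepa1-6 TEC turned from -0.88 to 0.34 with scaling to the 75th percentile, and no ratio reached 1.5 with normexp, at 0.27, -0.24 and 0.35. The 2 other Cspg4 probes were not well above background on any array.

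Mcam, or CD146, is an adhesion molecule of endothelial cells as well as pericytes, and it was the marker higher in all 3 TECs whose order between lines differed from that of Pdgfrb and Kcnj8. It read 13.55 in LSECs, 15.62 in HAK-1B TEC, 14.20 in Hepa1-6 TEC, 14.83 in KYN-2 TEC and 13.36 in cultured Hepa1-6 cells. HAK-1B TEC was the high sample at 4.22-fold over LSECs, followed by KYN-2 TEC at 2.43-fold and Hepa1-6 TEC at 1.57-fold. The mean log2 ratio was 1.34 ± 0.71 (SD, n = 3 TEC lines), the adjusted p by limma was 0.726, and each ratio stayed above 1.5 under every scaling and background correction tried, Hepa1-6 TEC by a small margin. Cultured cancer cells lay 1.13-fold below LSECs.

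The cytoskeletal markers were read by probes that disagreed. Acta2 encodes smooth muscle alpha-actin, which marks smooth muscle, contractile pericytes and activated stellate cells. Of its 4 probes, the brightest maps to chromosome 19 of mm9, minus strand, with its ends 3255 bases apart, so that its 60 bases cross an exon junction. Another was designed on a cDNA clone and lies 1696 bases 5′ of it. Both are printed to show that probes under 1 gene name read different stretches, the former of which lies in coding sequence that is much alike among the actin genes.
Acta2 junction probe: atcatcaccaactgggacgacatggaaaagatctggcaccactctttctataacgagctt
Acta2 cDNA clone probe: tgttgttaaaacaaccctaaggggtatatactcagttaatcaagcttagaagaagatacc
The junction probe read 13.20 in LSECs, 14.20 in HAK-1B TEC, 13.66 in Hepa1-6 TEC, 14.44 in KYN-2 TEC and 13.94 in cultured Hepa1-6 cells. By this probe the TECs were 1.99-fold, 1.37-fold and 2.36-fold above LSECs, and the cancer cells also were, by 1.66-fold.

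A second Acta2 probe, 6875 bases 3′ of the junction probe, gave another picture. It read 6.61 in LSECs, 8.92 in HAK-1B TECs, 9.90 in Hepa1-6 TECs and 10.68 in KYN-2 TECs, all well above background, and 2.28 without the flag in cultured Hepa1-6 cells. The TECs were 4.95-fold, 9.76-fold and 16.8-fold above LSECs, and Hepa1-6 TEC was at least 15.3-fold above the cancer cells. The mean log2 ratio was 3.22 ± 0.88 (SD, n = 3 TEC lines) against 0.90 ± 0.40 for the junction probe, with adjusted p of 0.49 and 0.774 by limma. The order of the 3 lines by the second probe was that of Pdgfrb and Kcnj8. Under every scaling and background correction tried, its ratio exceeded 1.5 in all 3 lines, with the lowest value of 1.79 on the log2 scale in HAK-1B TEC under normexp. The probe farthest 3′ was well above background only in Hepa1-6 TEC at 4.42 and KYN-2 TEC at 5.42, and the cDNA clone probe nowhere. When any probe of a gene could count, an alternative chosen after seeing the data, Acta2 joined the markers higher by 1.5 in all 3 TECs, which made 4, and it passed the full rule in KYN-2 TEC beside Kcnj8. Whether the junction probe also took up other actin transcripts was not tested.

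Des encodes desmin, the intermediate filament of muscle, pericytes and, in rodents, of stellate cells. Its brightest probe is on chromosome 1 of mm9, plus strand, with ends 226 bases apart, so it too crosses an exon junction. It is printed with the stop codon that ends its open frame in capitals, which places it at the end of the coding sequence.
Des junction probe: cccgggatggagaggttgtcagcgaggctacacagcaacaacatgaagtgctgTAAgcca
The signal was 4.31 without the flag in LSECs, 4.59 in HAK-1B TECs, 6.36 in Hepa1-6 TECs and 5.56 in KYN-2 TECs, and 5.87 without the flag in cultured Hepa1-6 cells. Hepa1-6 TEC was at least 3.22-fold and KYN-2 TEC at least 1.84-fold above LSECs, and no fold can be given for HAK-1B TEC. The TEC mean was at least 1.77-fold higher, with an adjusted p of 0.808 by limma. These bounds hold for the processed signal: with normexp the log2 ratios of Hepa1-6 and KYN-2 TEC were 0.79 and 0.37, the latter under a ratio of 1.5. A second probe, 4897 bases 5′, was well above background only in Hepa1-6 TEC, at 3.15.

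**Figure D3:**
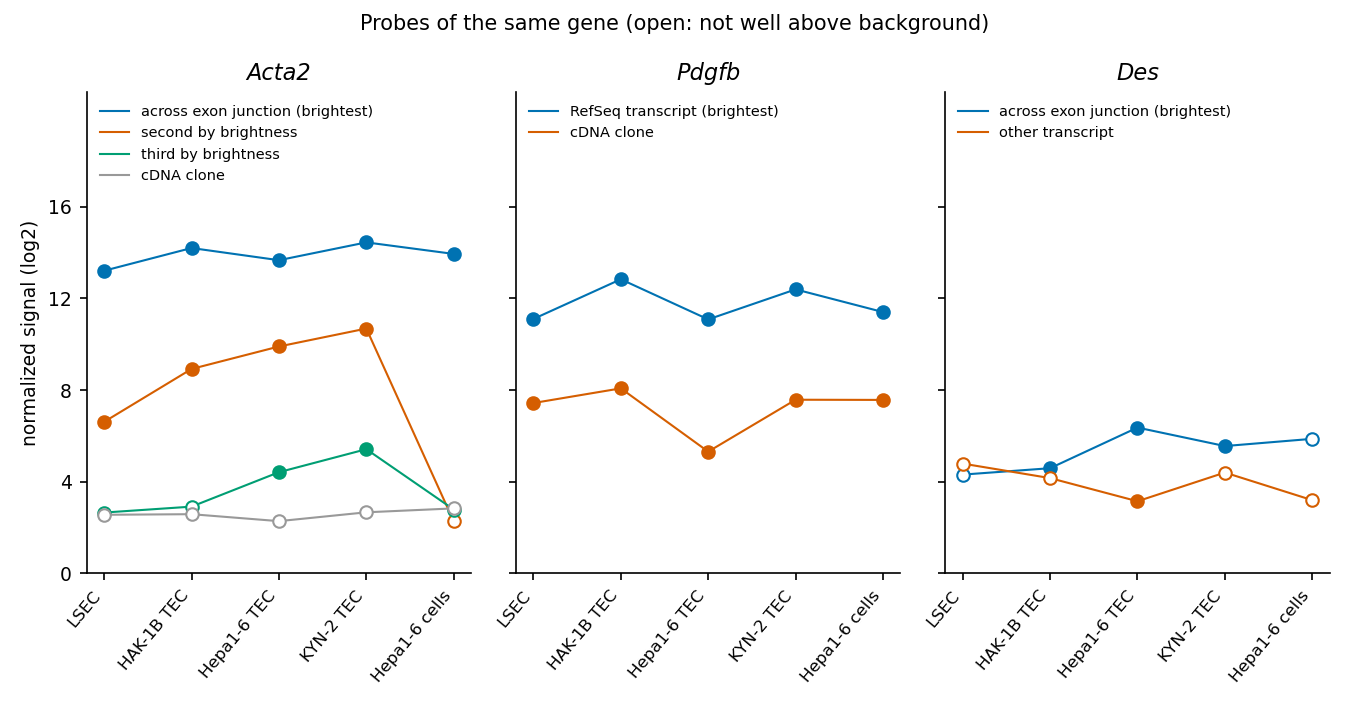
Normalized log2 signal (vertical axis) of every probe named Acta2, Pdgfb and Des on the 5 arrays (horizontal axis), 1 line per probe, with open points where a probe was not well above background. The second Acta2 probe climbs from 6.61 in LSECs to 10.68 in KYN-2 TEC and is at 2.28 in cultured cells, where the junction probe stays between 13.20 and 14.44 on all 5 arrays.

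Most other genes of the contractile apparatus were not higher in all 3 TECs. Of 16 listed smooth muscle genes 12 were kept, with 1 higher in all 3 TECs by 1.5 (8.33%), 1 lower (8.33%) and a median mean ratio of -0.33. Tagln, or transgelin, was the higher one, at 9.47 in LSECs and 10.19, 10.38 and 11.32 in the HAK-1B, Hepa1-6 and KYN-2 samples. Myl9, a regulatory myosin light chain, was the lower one, at 14.56 in LSECs and 10.98, 11.58 and 13.41 in the TECs. Both had the order of lines of the second Acta2 probe, an order that not all listed genes kept. Cnn1, calponin, read 5.98 in LSECs, 6.31 in KYN-2 TEC and 3.91 without the flag in HAK-1B TEC, and its log2 ratio to LSECs was -1.98 in Hepa1-6 TEC. Of the defining genes of mature smooth muscle, Lmod1 and Myocd were not well above background on any array, and Myh11 was so in HAK-1B TEC at 5.35, Hepa1-6 TEC at 3.69 and cultured Hepa1-6 cells at 6.70, but not in LSECs or KYN-2 TEC.

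The 3 TEC lines differed in how much of each marker they carried. KYN-2 TEC had the highest signal of the 3 for 7 of 10 markers (Pdgfra, Pdgfrb, Rgs5, Cspg4, Acta2, Notch3 and Kcnj8), where it was highest for 27.4% of all genes, and the lowest for 0 of 10, against 27.9%. HAK-1B TEC was highest for Pdgfb and Mcam (background 30.6%) and Hepa1-6 TEC for Des (42%). The lowest sample was Hepa1-6 TEC for Pdgfb, Cspg4, Acta2, Mcam and Notch3 (38.8%) and HAK-1B TEC for Pdgfra, Pdgfrb, Rgs5, Des and Kcnj8 (33.4%). By its second probe Acta2 was lowest in HAK-1B TEC. Pan-endothelial genes were also highest in KYN-2 TEC among the TECs, with a log2 summed signal of 17.41 against 16.37 in HAK-1B and 16.38 in Hepa1-6 TEC, and their part in the order was not tested. Each line is 1 sample, and line and animal cannot be told apart.

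The genes whose profile over the 5 arrays was nearest to that of Pdgfrb were searched among 27055 genes, by the root mean square difference of log2 signals after each gene's mean was taken off. The nearest were Col5a1 at 0.20, Adra2a at 0.20 and Kcnj8 at 0.30. These distances take signals without the flag as they stand, among them that of Pdgfrb itself in cultured cells, so the order is a description of normalized signals only. Col5a1, a fibrillar collagen chain of mesenchymal cells, read 6.31 in LSECs, 7.76 in HAK-1B TECs, 8.76 in Hepa1-6 TECs and 9.15 in KYN-2 TECs, and 4.31 without the flag in cultured cells. Adra2a, an adrenergic receptor, was at 3.74 without the flag in LSECs and at 5.48, 6.51 and 6.29 in the TECs. Kcnj8 was the single marker among the 3. The pairs of markers most alike after Pdgfrb and Kcnj8 were Acta2 with Notch3, at 0.38, and Pdgfb with Mcam, at 0.39. These are likenesses over 5 arrays, of which the cultured cells differ most from the rest.

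**Figure D4:**
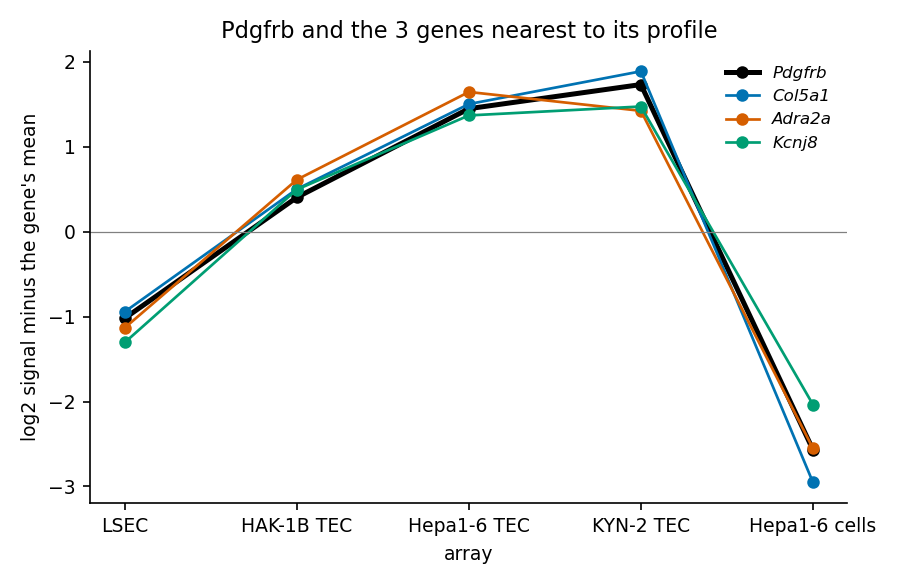
Log2 signal minus each gene's own mean (vertical axis) on the 5 arrays (horizontal axis) for Pdgfrb and the 3 genes nearest to its profile. All 4 are below their mean in LSECs and in cultured Hepa1-6 cells and above it in the 3 TECs, with HAK-1B TEC lowest of the TECs.

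A wider list of pericyte and mural genes was split. Of 26 genes 24 were kept, 7 were higher in all 3 TECs by 1.5 (29.2%) and 4 lower (16.7%), with a median mean log2 ratio of 0.82. Anpep, or CD13, a peptidase of pericytes and of many myeloid and epithelial cells, was the 1 gene that passed the full rule, at 8.96 in LSECs and 13.21, 12.75 and 14.31 in the HAK-1B, Hepa1-6 and KYN-2 samples. The other 6 higher genes, named after their values were seen, were Abcc9, Ndufa4l2, Ednra, Ednrb, P2ry14 and S1pr3. Ndufa4l2, a mitochondrial protein of pericytes that is also induced by hypoxia, was 3.66 without the flag in LSECs and 5.91, 6.61 and 8.87 in the TECs, at least 5.48-fold higher in their mean. The 4 lower genes were Tbx2, Gucy1b3, Adamts1 and Trpc6. Tbx2, a transcription factor, read 11.38 in LSECs and 7.57, 9.41 and 9.19 in the TECs. Higd1b and Vtn, listed here as pericyte genes of the brain, were lower than LSECs in some lines and higher in others. Vtn was at 8.49 in LSECs and 4.92, 9.91 and 7.89 in the TECs. The log2 summed signal of the hepatocyte genes listed below had the same order, at 15.43 in LSECs and 11.32, 16.14 and 13.28 in the TECs. In cultured Hepa1-6 cells Vtn was at 2.59 without the flag, whereas that sum was 14.69. The part of hepatocytes in the Vtn signal was not tested. The summed signal of the 26 genes was 13.78 in LSECs and 14.07 to 15.17 in TECs on the log2 scale.

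Fibrillar collagen genes of fibroblasts were also higher in TECs. Of 20 fibroblast genes 5 were higher in all 3 TECs by 1.5 (25%) and 0 lower, with a median mean ratio of 1.18. Their summed log2 signal was lowest in LSECs at 12.92 and read 14.37 in HAK-1B, 15.32 in Hepa1-6 and 14.91 in KYN-2 TEC. It was highest in cultured Hepa1-6 cells, at 16.77. Col1a1, the main chain of collagen I, was the 1 gene past the full rule, at 4.72 without the flag in LSECs and 9.46, 10.87 and 11.53 in the TECs, at least 59.7-fold higher in their mean. The order of the 3 lines was that of Pdgfrb, and Col1a2 and Col3a1 kept this order too, Col1a2 with 8.35 in LSECs and 10.96, 11.89 and 12.37 in the TECs. Pdpn, the higher gene that is not a collagen, had another order, at 6.55 in LSECs and 12.79, 8.59 and 12.07 in the TECs. Lum and Dcn were not higher in all 3 TECs. Lum read 6.84 in LSECs and 6.37, 6.85 and 7.23 in the TECs. Dcn was brightest in cultured Hepa1-6 cells, at 16.74, and at 14.72 in Hepa1-6 TEC it made up most of that sample's sum. Of 20 stellate cell genes 2 were higher in all 3 TECs (10%), near the 7.95% of all genes, and 1 lower (5%). Their summed signal of 15.20 in LSECs and 16.35 to 16.75 in TECs came mostly from Ecm1 and Vim, at 14.30 and 13.61 in LSECs, which other cells express as well. Among those with the largest mean ratios were Ngfr, at 4.16 without the flag in LSECs and 4.60, 10.22 and 6.38 in the TECs, and Colec10, lower in each TEC. Lrat, the vitamin A enzyme that defines quiescent stellate cells, was well above background only in Hepa1-6 TEC, at 4.16. The part of fibroblasts or stellate cells in the ratios of Pdgfrb, Acta2 and Kcnj8 was not tested.

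**Figure D5:**
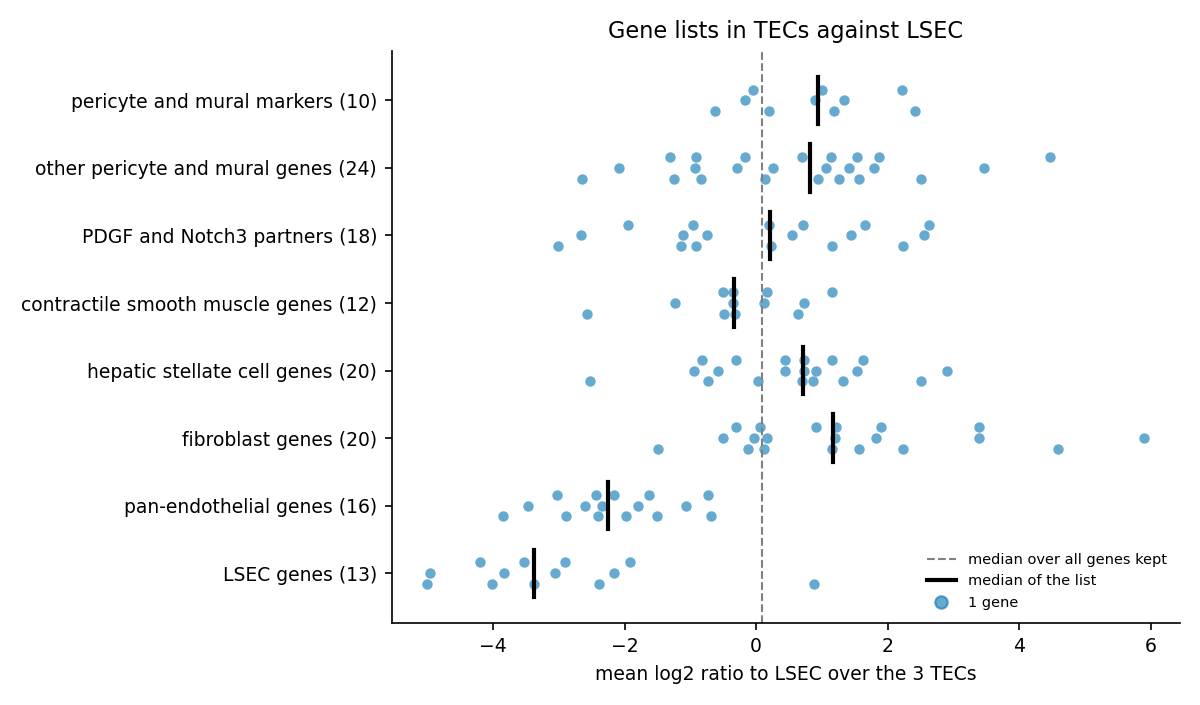
Mean log2 ratio to LSEC over the 3 TECs (horizontal axis) of each gene kept in 8 lists (vertical axis, number of genes in brackets), with a bar at each list's median and a dashed line at the median of all genes. The pericyte and mural markers and the fibroblast genes have medians of 0.95 and 1.18, and the pan-endothelial and LSEC genes of -2.25 and -3.38.

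Endothelial genes went the other way. Of 16 pan-endothelial genes 0 were higher and 12 lower by 0.66 in all 3 TECs (75%), with a summed log2 signal of 19.14 in LSECs and 16.37 to 17.41 in TECs, and Kdr and Tek passed the full rule. Of 13 LSEC genes 12 were lower (92.3%) and 6 passed the full rule (Clec4g, Oit3, Dnase1l3, Gpr182, Wnt2 and Bmp2), with sums of 19.93 and 16.71 to 17.07. The exception was Lyve1, at 11.29 in LSECs and 11.07, 12.26 and 13.17 in the TECs. Mcam, which endothelial cells express, was higher in all 3 TECs, whereas the probes of Pdgfb disagreed. The brightest was higher in HAK-1B and KYN-2 TEC, with a log2 ratio of -0.02 in Hepa1-6 TEC. The second was lower in Hepa1-6 TEC, with log2 ratios of 0.64 in HAK-1B and 0.14 in KYN-2 TEC. Skeletal muscle, which also makes desmin and actins, was read by 13 genes that summed to 8.19 in LSECs and 10.12 to 10.68 in TECs, with 1 of 10 kept genes higher in all 3 TECs. Tnni2, a fast troponin, read 6.36 in LSECs and 9.89, 9.10 and 9.89 in the TECs, Acta1, skeletal alpha-actin, 4.02 without the flag and 4.59, 7.50 and 7.88, while Myog, Myod1 and Pax7 were not well above background anywhere. Ttn, titin, carried the flag on the Hepa1-6 TEC array alone, at 5.86. Acta1 had the same order of lines as the second Acta2 probe, and its part in that result was not tested. Of 11 hepatocyte genes kept 3 were lower in all 3 TECs, Hpd by the full rule, and their log2 sum was 15.43 in LSECs and ranged from 11.32 in HAK-1B TEC to 16.14 in Hepa1-6 TEC. Of 10 neutrophil genes 4 were higher, Mmp8 by the full rule, with sums of 16.49 in LSECs and 16.02 to 17.63 in TECs. The LSEC sum came mostly from Csf3r, at 16.45 there and 15.22 in cultured Hepa1-6 cells. The median log2 ratio of the neutrophil genes was 4.66 in HAK-1B, 3.82 in Hepa1-6 and 0.46 in KYN-2 TEC. S100a8 read 7.82 in LSECs and 14.86, 12.19 and 9.44 in the TECs. Of 11 macrophage genes 5 were lower, with the largest ratios for the Kupffer cell genes Clec4f, Cd5l and Timd4, and sums of 19.54 in LSECs and 18.24 to 19.02 in TECs. Of 8 platelet genes 4 were lower, led by Clec1b, which is also among the LSEC genes, Ppbp and Gp9. Pf4 was not lower in all 3, at 15.31 in LSECs and 15.20, 15.78 and 16.90 in the TECs. The platelet sums were 16.70 in LSECs and 15.38 to 17.10 in TECs.

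Cultured Hepa1-6 cells served as the sample free of vessels. Against LSECs, 0 of the 9 markers kept passed the full rule (background 7.4%), which here asks for 39.8-fold higher or 51.2-fold lower. By the ratio alone 2 of the 9 were higher, Pdgfra and Acta2 by its junction probe (background 36.2%), and 4 lower, Pdgfrb, Rgs5, Cspg4 and Kcnj8 (37.7%). Rgs5 was at least 2.42-fold lower than in LSECs, and no fold can be given for Pdgfrb and Cspg4, whose LSEC signals were below the lowest flagged signal of the cancer cell array, 5.96. Mcam, Notch3, Pdgfb, Acta2 by its junction probe, Pdgfra and Kcnj8 were thus measured in a culture without pericytes, and their signal in TECs from Hepa1-6 tumors cannot be told apart from that of cancer cells by presence alone. No array held cultured HAK-1B or KYN-2 cells, so the part of cancer cells in TECs of those tumors could not be examined. For Pdgfrb, Rgs5 and the second Acta2 probe the cancer cell array had no flag, and Hepa1-6 TEC was at least 3.09-fold, 2.41-fold and 15.3-fold higher.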

How the data were processed

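RNA of 5 samples was labelled with Cy3 and hybridized to Agilent 60-mer mouse arrays. The authors deposited each spot's intensity on a linear scale with flags, read by Feature Extraction (9.5.1.1 per the labels, 10.7.1.1 per the file headers), and a table of normalized intensity values. Probe positions are those of the files, on mm9. Control spots were left out, repeated spots averaged, and log2 gProcessedSignal quantile normalized over the 5 arrays in Python 3.11.15 with pandas 2.3.3. The repeated spots of an array differed by a median coefficient of variation of 2.62% to 3.08%, and the number of arrays limits precision. No array had a saturated spot. The methods normalize the samples compared. For each comparison, a probe had to be present on 1 or both arrays by the flags, and probes for lincRNAs were dropped. A gene was called by the rule of the methods, a ratio of 1.5 with a Z-score of 2 or of 0.66 with -2, and no test applies to 1 array against 1. The 3 TECs were tested against LSEC with limma 3.58.1 in R 4.3.3 (2 residual degrees of freedom, Benjamini-Hochberg over 42112 probes). The scripts were tested on simulated data. The markers and the 12 other gene lists were chosen with earlier results of these data known. Named genes of the other lists are those past the full rule in all 3 TECs, otherwise up to 3 with the largest mean absolute log2 ratio to LSEC among those well above background on at least 1 of the 4 endothelial arrays, and other genes of these lists in the text were chosen after their values were seen. A gene that this rule names is not reported here. The alternatives comprised the deposited table, normalization by pair or to the 75th percentile, normexp (offset 50), leaving out the Z-score, other flag filters and choices of probe, an intensity trend in limma, and each TEC left out in turn.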

Additional observations from a re-analysis of the deposited data

Results flagged for a closer look

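Markers that were past a ratio of 1.5 in 1 TEC line and past 0.66 in another, with every probe well above background, stood out because the lines moved opposite ways against the same LSEC array. The difference between lines was not tested, since each line is 1 array. The second Pdgfb probe had log2 ratios of 0.64 in HAK-1B, -2.12 in Hepa1-6 and 0.14 in KYN-2 TEC, a spread of 2.76. With normexp they were 0.43, -1.14 and 0.12, and HAK-1B TEC was no longer past 1.5. Rgs5 had -1.35, -0.01 and 0.84, a spread of 2.19. Cspg4 had 0.68, -0.88 and 0.78, a spread of 1.66, and its sign in Hepa1-6 TEC turned with scaling to the 75th percentile, and with normexp none of its ratios was past 1.5 or 0.66.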

How the results depend on the processing

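Of the counts of markers and their median, 64 values under an alternative stayed within 1.5 times or the spread between lines and 19 moved. The 64 include counts of 0 that stayed 0, those of limma among them, and counts that stayed near while the markers in them changed. They are therefore no measure of how stable the calls were. Of the single markers' mean ratios 78 did not move beyond the spread between lines and 2 did. Without the Z-score the markers called were 3 in all 3 TECs, 8 each for the HAK-1B and KYN-2 lines, 6 for Hepa1-6 TEC, 6 in cultured Hepa1-6 cells against LSEC and 7 in Hepa1-6 TEC against cultured cells. Scaling to the 75th percentile left 0 for KYN-2 TEC against LSEC and 0 for Hepa1-6 TEC against cultured cells, and it moved the median log2 ratio of all genes to 0.41 for Hepa1-6, -0.16 for HAK-1B and -0.08 for KYN-2 TEC. Normexp called 1 marker, Mcam, for HAK-1B TEC and 1, Kcnj8, for Hepa1-6 TEC. With no flag filter there were 2 in KYN-2 TEC, 1 in cultured cells against LSEC and 2 in Hepa1-6 TEC against cultured cells, and with the flag required on both arrays 2 in KYN-2 TEC as well and 1 for Hepa1-6 TEC. With any probe of a gene, chosen after seeing the data, 2 were called for KYN-2 TEC against LSEC and 2 for Hepa1-6 TEC against cultured cells. The median over all probes of a gene took the markers' median log2 ratio from 0.95 to 0.30. With each TEC left out in turn, 4 to 6 markers were past the ratio in the remaining TECs, 6 without Hepa1-6 TEC and 4 without either of the others. These counts take both directions, and without KYN-2 TEC the 4 included Pdgfra, which was lower. The shares of all genes past the ratio with a TEC left out were not computed. The limma count was 0 under each of its alternatives, with an unadjusted p under 0.05 for 0 to 2 markers. No paired analysis was possible because no condition had more than 1 array, and a block for the slide was not run, since LSEC and the TECs were on separate slides. Signals near background limit Des, Cspg4, Pdgfra and, in LSECs, Pdgfrb. The cause of these differences was not tested.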
